A study of Oryza sativa with 36 samples.

Results

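D14 (LOC4331983), MADS57 (LOC4330621) and TAC1 (LOC4347655) are rice genes that act on how many tillers, the basal side shoots, a plant forms and at what angle they stand. They were taken by name, with every probe set annotated to them, which gave 1 probe set for each of the 3 genes among 17905 genes that the array annotation ties to probe sets of a single symbol. RNA was measured on 36 Affymetrix rice arrays, 18 of leaf and 18 of root, from the hybrid LYP9 and the lines 9311 and PA64s, known from background and not from the labels to be its parents. Seedlings grew for 5 days in nutrient soil and then, 15 of each variety to a barrel, in 12 barrels of poor soil. At 14 days of age 10 g of urea and 10 g of compound fertiliser went to 6 of the barrels, and these plants form the nutrient-sufficient groups (also labelled heterotic), while plants of the other barrels form the nutrient-deficient groups (non-heterotic). Each of the 12 groups (LYP9, 9311 or PA64s, sufficient or deficient, leaf or root) has 3 arrays, and the labels do not say whether these came from separate plants or barrels, so p-values speak of the spread among these arrays alone, which may be technical.

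Strigolactones are carotenoid-derived hormones that hold axillary buds back from growing into tillers. D14 is the hydrolase that binds strigolactone and, with the F-box protein D3, marks the repressor D53 for breakdown, and rice that lacks D14 forms many short tillers. MADS57, a MADS-box transcription factor and a target of a microRNA family, is known in rice to repress the D14 gene. TAC1 acts apart from this pathway and widens the tiller angle, so that plants with little of it stand compact.

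Arrays fitted their tissue labels. The mean of 6 light-harvesting, photosystem and Rubisco genes lay at 11.23 to 11.96 log2 units on the leaf arrays and at 5.36 to 6.58 on the root arrays. The mean of 5 genes of the root list lay at 6.27 to 6.81 on leaf and 8.85 to 11.24 on root arrays. Array medians lay between 65.97 and 75.38 intensity units. All 3 probe sets passed the filter on low signal, which kept the upper 60% by mean (34316 probe sets, with cutoffs of 53.9 intensity units for leaf and 52.1 for root). Below, "called" means a Benjamini-Hochberg adjusted p under 0.05 in limma over those 34316, errors of log2 differences are limma standard errors and errors of levels are SDs of 3 arrays.

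**Figure D1:**
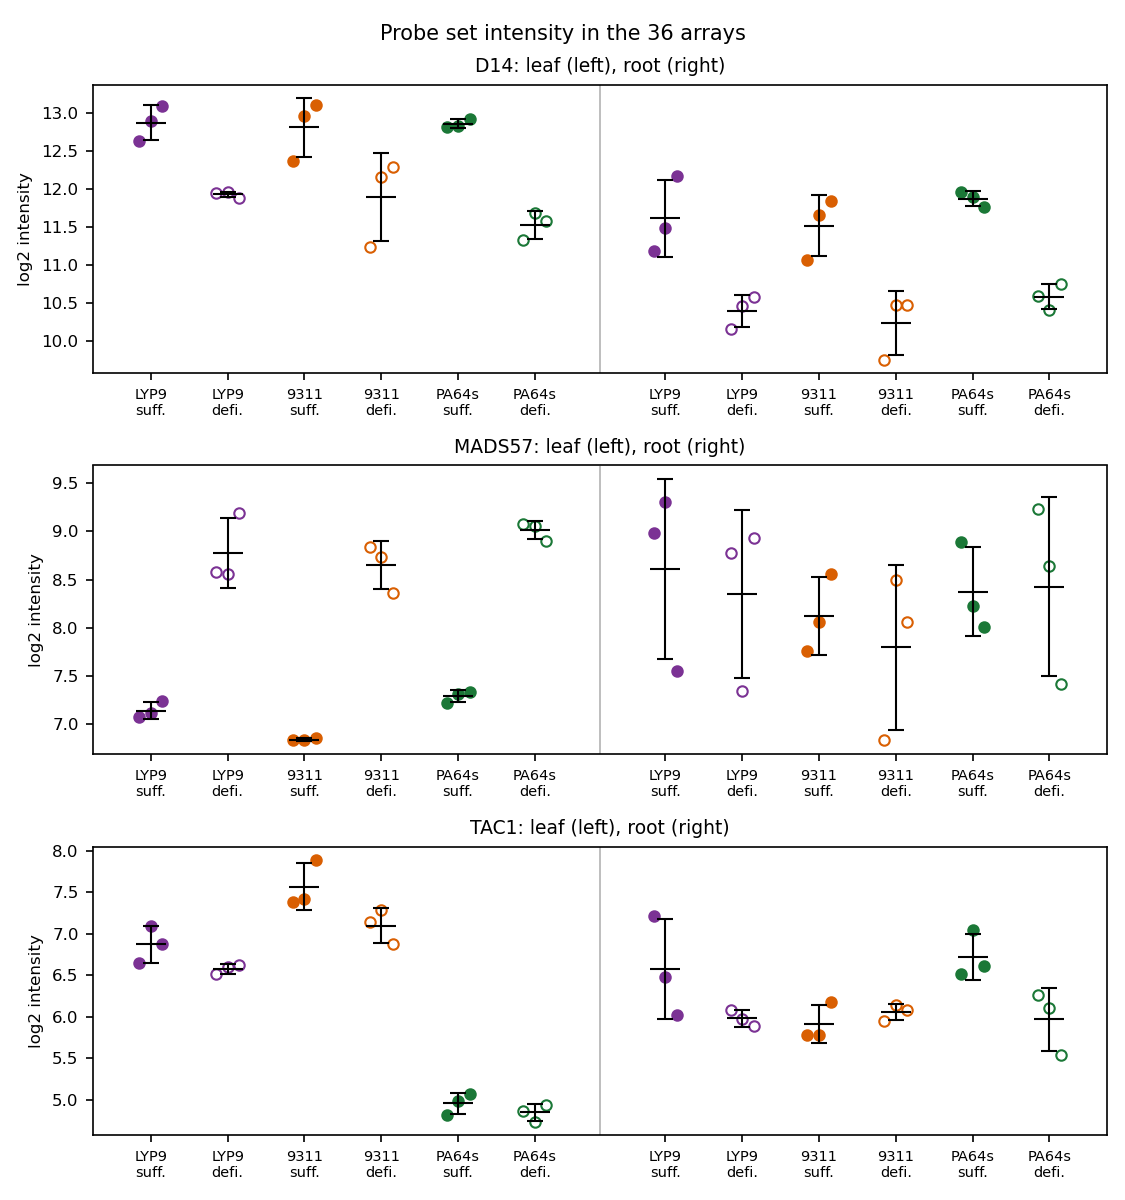
Log2 intensity of D14, MADS57 and TAC1 in each of the 36 arrays, by genotype and nutrient state (suff., nutrient-sufficient, filled; defi., nutrient-deficient, open), leaf left and root right; black bars are the mean and SD of 3 arrays. D14 is higher in the sufficient arrays of every genotype in both tissues, MADS57 is lower in the sufficient leaf arrays and scattered in root, and TAC1 is low in PA64s leaf.

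Fertiliser comes first, beginning with D14, the strigolactone receptor. D14 was higher in the nutrient-sufficient state in every genotype and in both tissues, by 1.89- to 2.52-fold, and all 6 differences were called. In LYP9 leaves it read 6366, 7671 and 8756 intensity units in the sufficient state, against 3949, 3984 and 3790 in the deficient state. In 9311 leaves the sufficient arrays read 5289, 8031 and 8828 and the deficient arrays 2411, 4601 and 5014. PA64s leaves read 7227, 7325 and 7802 when sufficient and 2569, 3290 and 3066 when deficient. No sufficient array overlapped the deficient arrays of its own genotype, though the 9311 groups were wide and came close, at 5289 against 5014. How many of all probe sets separate in this way is not given, so separations here and below only describe the arrays. As in any whole-organ sample, a difference in the share of cells that carry a transcript and a difference in RNA per cell cannot be told apart.

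D14 was 1.93-fold higher in sufficient LYP9 leaves (log2 difference 0.95 ± 0.23 SE, adjusted p = 0.0206), 1.89-fold in 9311 leaves (0.92 ± 0.23, adjusted p = 0.0185) and 2.52-fold in PA64s leaves (1.33 ± 0.23, adjusted p = 0.00312). The LYP9 call was lost without sufficient replicate 3 (log2 0.84) or deficient replicate 1 (0.95) or 3 (0.93). The 9311 call was lost without sufficient replicate 2 (0.84) or 3 (0.77) or deficient replicate 1, where the difference was 0.59. The PA64s call held without any single array.

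Root showed the same direction at a lower level. D14 read 2322, 2886 and 4604 intensity units in sufficient LYP9 roots, against 1144, 1403 and 1525 in deficient ones. In 9311 roots the sufficient arrays read 2137, 3243 and 3662 and the deficient arrays 859.7, 1419 and 1425. PA64s roots had 3982, 3831 and 3484 when sufficient and 1541, 1361 and 1714 when deficient. Again no group overlapped its counterpart. The differences were 2.33-fold in LYP9 (log2 1.22 ± 0.25, adjusted p = 0.0143), 2.44-fold in 9311 (1.29 ± 0.25, adjusted p = 0.0098) and 2.45-fold in PA64s (1.30 ± 0.25, adjusted p = 0.0089). The LYP9 root call was lost without sufficient replicate 3 (0.94) or deficient replicate 1 (1.10), and the 9311 root call without sufficient replicate 2 (1.22) or deficient replicate 1 (1.05).

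Averaged over the 3 genotypes, D14 rose by log2 1.07 ± 0.14 in leaf (adjusted p = 2.93e-05) and by 1.27 ± 0.14 in root (adjusted p = 2.34e-05), and both calls held under all 25 alternatives run on each. Leaf and root responses of D14 were not called different (log2 -0.20 ± 0.21, 95% interval -0.62 to 0.22, adjusted p = 0.539). Nor was the 9311 response called different from that of PA64s in leaf (-0.41, 95% interval -1.12 to 0.29) or in root (-0.006, 95% interval -0.76 to 0.75). The leaf interval between the parents reaches a difference as large as a response, while the other 2 intervals stop short of one.

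MADS57, the regulator of D14, behaved differently in the 2 tissues. In leaf it was about 3-fold lower in the sufficient state in every genotype, and in root it varied widely within groups and no change was called. Sufficient LYP9 leaves read 135, 138 and 151 intensity units, against 382, 376 and 584 in deficient ones. Sufficient 9311 leaves read 114, 114 and 116, against 458, 427 and 330 in deficient ones, and PA64s leaves read 149, 159 and 162 when sufficient and 540, 534 and 479 when deficient. All 9 sufficient leaf arrays, at 114 to 162, lay below all 9 deficient leaf arrays, at 330 to 584.

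MADS57 fell 3.11-fold in LYP9 leaves (log2 -1.64 ± 0.16, adjusted p = 2.71e-05), 3.5-fold in 9311 leaves (-1.81 ± 0.16, adjusted p = 7.67e-06) and 3.31-fold in PA64s leaves (-1.73 ± 0.16, adjusted p = 1.63e-05). By size these were the 54th, 54th and 71st largest falls of the 34316 probe sets tested. Each call held under all 13 alternatives, with adjusted p up to 0.0121 in LYP9, 0.0044 in 9311 and 0.00901 in PA64s. The leaf response of 9311 minus that of PA64s was -0.084 (95% interval -0.55 to 0.38) and that of LYP9 minus the mean of its parents 0.13 (-0.27 to 0.54), neither called.

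In root, MADS57 read 506, 633 and 187 intensity units in sufficient LYP9, against 440, 162 and 487 in deficient LYP9. It read 216, 267 and 376 in sufficient 9311, against 114, 360 and 267 in deficient 9311. PA64s roots had 475, 298 and 257 when sufficient and 601, 398 and 170 when deficient. Within a root group the SD reached 0.94 log2 units, while in leaf it was 0.36 at most, and every sufficient root group overlapped its deficient counterpart. The root differences were log2 0.26 ± 0.56 in LYP9 (95% interval -0.92 to 1.44), 0.33 ± 0.56 in 9311 (-0.86 to 1.51) and -0.053 ± 0.56 in PA64s (-1.24 to 1.13), with adjusted p = 0.888, 0.776 and 0.983. These intervals are too wide to exclude a sizeable rise or a sizeable fall in any genotype.

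The test of the leaf response against the root response was run in a fit of all 36 arrays. Leaf and root arrays were treated there as independent, though the labels do not say whether they share plants or barrels. Averaged over the 3 genotypes, the MADS57 response was lower in leaf than in root (log2 -1.90 ± 0.35, adjusted p = 0.000286), and this held under all 42 alternatives (-2.08 to -1.73). Taken alone, 9311 gave -2.14 ± 0.61 (adjusted p = 0.0467), LYP9 -1.90 ± 0.61 (adjusted p = 0.097) and PA64s -1.67 ± 0.61 (adjusted p = 0.125). The 9311 call was lost on leaving out any of its 12 arrays (-2.28 to -1.66) except sufficient root replicate 1 and deficient root replicate 2, with no filter (adjusted p = 0.0608) and with 16 added to the intensities (0.0522). Without sufficient root replicate 3 the LYP9 difference was -2.43 and was called (adjusted p = 0.026).

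**Figure D2:**
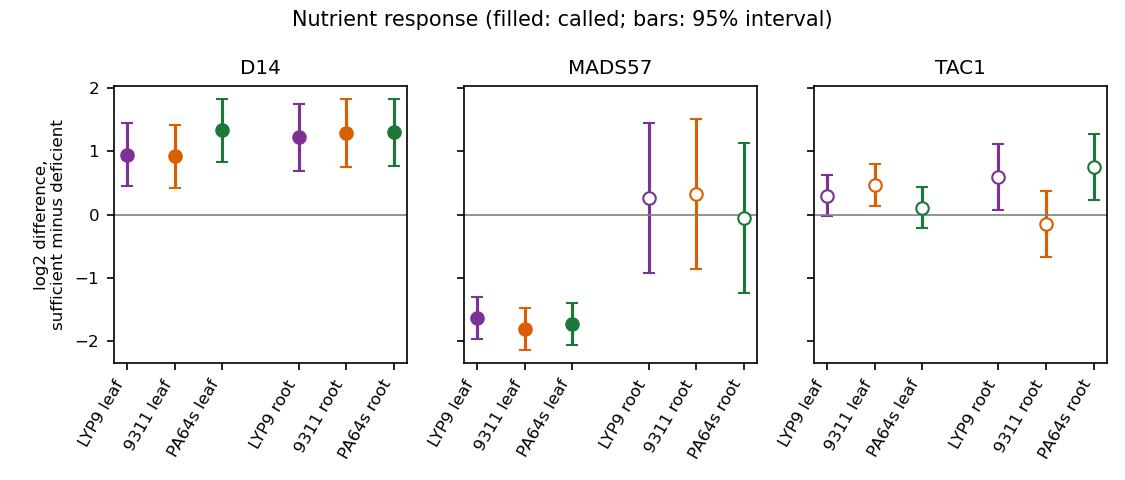
Log2 difference, nutrient-sufficient minus nutrient-deficient, of D14, MADS57 and TAC1 in each genotype and tissue, with 95% intervals; filled points were called and open points were not. All 6 D14 points lie above 0, the 3 leaf points of MADS57 lie between -1.81 and -1.64, and no TAC1 point was called.

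Set side by side in leaf, sufficient plants had more D14 and less MADS57 RNA in all 3 genotypes. Over 9 sufficient leaf arrays D14 ran from 5289 to 8828 and MADS57 from 114 to 162. The 9 deficient leaf arrays had D14 at 2411 to 5014 and MADS57 at 330 to 584, so the states did not overlap in either gene. Root D14 separated the states within each genotype with MADS57 between 187 and 633 in sufficient roots and between 114 and 601 in deficient roots. Across the 12 group means, each set relative to its tissue's mean, D14 and MADS57 had a Pearson correlation of -0.50, a description of points that share arrays and nutrient states. It pools leaf, where both genes separated the states, with root, where MADS57 did not. Whether MADS57 acted on D14 in these plants was not tested.

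**Figure D3:**
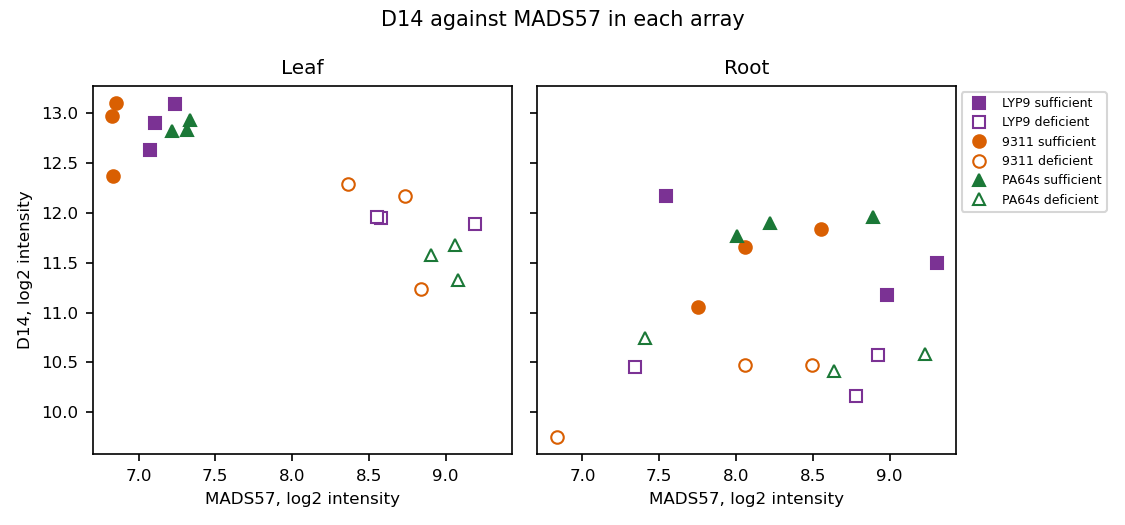
D14 against MADS57 in each array, both as log2 intensity, leaf left and root right; filled symbols are nutrient-sufficient, open symbols nutrient-deficient, and shapes mark the genotype. In leaf the states fall into separate clusters with high D14 beside low MADS57, and in root the states separate along D14 while MADS57 overlaps.

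TAC1, the tiller angle gene, did not pass the threshold for fertiliser in any single genotype, in leaf or root. In leaf the differences were log2 0.30 ± 0.15 in LYP9 (adjusted p = 0.243), 0.47 ± 0.15 in 9311 (adjusted p = 0.0578) and 0.11 ± 0.15 in PA64s (adjusted p = 0.704). The 9311 value was called without deficient replicate 2 (0.56, adjusted p = 0.0445). The mean over the 3 genotypes in leaf, 0.29 ± 0.09, was called (adjusted p = 0.0167), but neither with quantile-normalized arrays (0.22, adjusted p = 0.0682) nor with median-centred arrays (0.22, adjusted p = 0.0704) or in the fit of all 36 arrays (adjusted p = 0.0567). No sufficient array overlapped the deficient ones in LYP9 leaf, where 100.5 stood against 98.3 at the closest, in 9311 leaf (167 against 156) or in PA64s root (91.4 against 76.8). The share of all probe sets that separate in this way is not given here. Such separations, also those of D14 and MADS57, are therefore descriptions and add nothing to the calls. In root the differences were 0.59 ± 0.25 in LYP9, -0.14 ± 0.25 in 9311 and 0.75 ± 0.25 in PA64s, with adjusted p = 0.232, 0.778 and 0.122. The PA64s root value was called in the fit of all 36 arrays (adjusted p = 0.0404), and the root mean over genotypes, 0.40 ± 0.14 (adjusted p = 0.0633), was called there too (adjusted p = 0.0218), as it was without sufficient LYP9 replicate 3 (0.49) or deficient PA64s replicate 1 (0.45).

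In the nutrient contrasts 2 of the 3 genes were thus called in leaf, beside 8.85% of all tested probe sets in LYP9, 11.9% in 9311 and 7.73% in PA64s. In root 1 of 3 was called, beside 3.46%, 5.89% and 3.33%. The averages over genotypes called 3 of 3 in leaf and 1 of 3 in root, beside 37.9% and 17.9% of all probe sets, and the leaf minus root response 1 of 3, beside 18.8%. With so few genes, chosen for what they do and with earlier results known, these counts are not read against the background. Which way most probe sets went in leaf depended on the scaling, while the directions of D14 and MADS57 did not. In LYP9 leaf 2127 were called higher and 910 lower, but 1441 and 1707 after quantile normalization. The same split was 2731 and 1362 in 9311 leaf, but 2267 and 2465, and 1720 and 932 in PA64s leaf, but 1271 and 1486.

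Between the parents, TAC1 had the largest difference in array readings of the 3 genes. In leaf TAC1 read higher in 9311 than in PA64s, while in root no difference was called. TAC1 read 167, 171 and 238 intensity units in sufficient 9311 leaves, against 28.3, 31.7 and 33.7 in sufficient PA64s leaves. Deficient leaves read 141, 156 and 117 in 9311 and 29.3, 26.7 and 30.8 in PA64s. All 6 leaf arrays of 9311 lay above all 6 of PA64s. The log2 difference, 9311 minus PA64s over both states, was 2.43 ± 0.11 (adjusted p = 2.75e-11), and it stayed between 1.95 and 2.48 under 19 alternatives, all called. PA64s leaves lie below the filter level of 53.9 intensity units, where signal was not shown to be above background, and TAC1 passed the leaf filter through 9311 and LYP9. The size of every TAC1 difference that uses PA64s leaves, the mid-parent included, is therefore uncertain. The standard errors and the ranges under alternatives do not cover that uncertainty. The log2 values describe array readings, and no size of a difference in RNA is read from them.

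In root TAC1 read 55.2, 55.3 and 72.5 in sufficient 9311 and 91.4, 132 and 98.1 in sufficient PA64s. Deficient roots read 62.1, 70.9 and 67.7 in 9311 and 76.8, 69.1 and 46.5 in PA64s. Sufficient 9311 roots lay below sufficient PA64s roots without overlap, and the deficient roots overlapped. The root difference was -0.36 ± 0.17 (95% interval -0.73 to 0.01, adjusted p = 0.18) and was not called. The parental difference in leaf exceeded that in root by log2 2.78 ± 0.21 (adjusted p = 7.06e-11), a test added after the levels had been seen, and all 30 alternatives kept the call (2.25 to 2.89). In array readings the 2 parents thus had opposite tissue patterns. TAC1 read higher in leaf than in root in 9311 (log2 1.34 ± 0.15, adjusted p = 3.67e-09) and lower in leaf than in root in PA64s (-1.44 ± 0.15, adjusted p = 8.78e-10). PA64s leaves, at 26.7 to 33.7, lay below the 55.6 intensity units at which this fit was filtered. Roots of 9311, at 55.2 to 72.5, lay near that level. The sizes of these differences, the 2.78 included, are therefore uncertain. In PA64s roots the same probe set read 46.5 to 132. Whether the probes match the transcripts of both parents equally was not tested.

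MADS57 was lower in 9311 leaves than in PA64s leaves by a small margin (log2 -0.41 ± 0.11, adjusted p = 0.0213). This call was lost in the fit of all 36 arrays (adjusted p = 0.441) and without deficient 9311 replicate 3 (-0.34) or deficient PA64s replicate 2 (-0.40). D14 did not pass between the parents in leaf (0.16 ± 0.17, 95% interval -0.19 to 0.51) or in root (-0.35 ± 0.18, -0.73 to 0.02), and neither did MADS57 in root (-0.44 ± 0.39, -1.28 to 0.40). In leaf 2 of 3 genes were called between the parents, beside 11.9% of all probe sets. In root limma called 0 of 3, with 0 at an unadjusted p under 0.05, beside 13.3%. The parental difference in leaf minus that in root, called for TAC1 among the 3, was called for 5.13% of all.

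The hybrid was set against both parents next. LYP9 carried an intermediate TAC1 level in leaf. Its sufficient leaves read 100.5, 137 and 118 and its deficient leaves 91.2, 97.1 and 98.3 intensity units. These arrays lay above every PA64s leaf array, and within a nutrient state all of them lay below every 9311 leaf array. Over both states LYP9 leaves read below 9311 (log2 -0.61 ± 0.11, adjusted p = 0.00226) and above PA64s (1.82 ± 0.11, adjusted p = 7.76e-09), both called under all 19 alternatives. The size of the difference from PA64s is uncertain, since PA64s leaves lay below the filter level. TAC1 was the 1 gene of the 3 called in these leaf contrasts, beside 3.3% and 4.09% of all probe sets. In root LYP9 differed from 9311 by 0.29 ± 0.17 (adjusted p = 0.541) and from PA64s by -0.069 ± 0.17 (adjusted p = 0.931), and 0 of the 3 genes were called by limma or had an unadjusted p under 0.05, beside 2.95% and 2.5%.

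Against the mid-parent, taken as the average of the parental log2 levels, LYP9 leaves read higher for TAC1, by 0.61 ± 0.13 in the sufficient state (adjusted p = 0.0374) and 0.60 ± 0.13 in the deficient state (adjusted p = 0.0391). These were the only calls among the 3 genes in the 4 mid-parent contrasts, beside 0.822% and 0.906% of all probe sets in leaf. Both calls were lost after quantile normalization (0.55 and 0.58), after median centring (0.59 and 0.58), with no filter, with 16 added to the intensities (0.44 and 0.43) and in the fit of all 36 arrays. The sufficient call was also lost without 9311 replicate 1 or 2, LYP9 replicate 2 or 3 or PA64s replicate 1 or 2 (0.50 to 0.62). The deficient call was lost without any array except 9311 replicate 2 (0.55 to 0.64). The scale of the mid-parent also mattered. On the linear scale LYP9 averaged 118.3 intensity units in sufficient leaves, 106% of the parental mean of 111.6, and 95.53 in deficient leaves, 114% of the parental mean of 83.43. In log2 units these linear differences are 0.085 and 0.20.

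D14 and MADS57 were near the mid-parent in leaf. D14 deviated by 0.04 ± 0.20 in the sufficient and 0.22 ± 0.20 in the deficient state, and MADS57 by 0.076 ± 0.14 and -0.056 ± 0.14, none called. In root 0 of 3 genes were called against the mid-parent in either state by limma, and 0 at an unadjusted p under 0.05, beside 0.72% (sufficient) and 0.513% (deficient) of all probe sets. Root deviations ran from -0.084 to 0.36, with MADS57 the least certain at 0.36 ± 0.48 and 0.24 ± 0.48. No gene of the 3 was called for a nutrient response of LYP9 that differed from the mean of its parents, in leaf or root (0 at an unadjusted p under 0.05, beside 0% of all probe sets in either tissue). The same held for 9311 against PA64s, beside 0.0175% in leaf and 0.00874% in root, with 0 genes at an unadjusted p under 0.05 in leaf and 1 in root, TAC1 (-0.90 ± 0.35, adjusted p = 0.37).

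**Figure D4:**
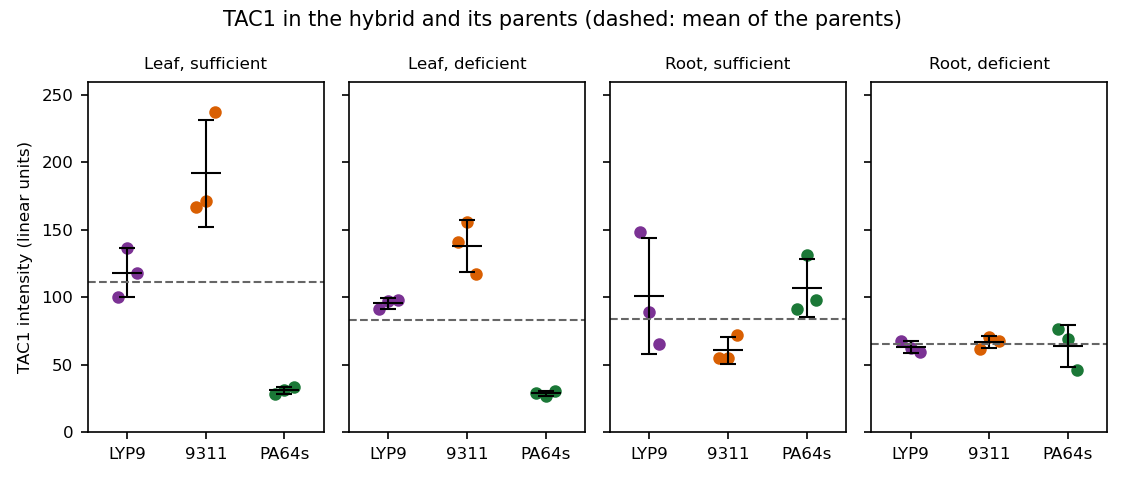
TAC1 intensity on a linear axis in LYP9, 9311 and PA64s, for leaf and root in each nutrient state; points are arrays, black bars the mean and SD of 3, and the dashed line the arithmetic mean of the parents. In leaf LYP9 lies between 9311 and PA64s and near the dashed line (118.3 against 111.6, and 95.53 against 83.43). In root sufficient 9311 lies below sufficient PA64s without overlap, and the deficient genotypes overlap.

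Over the 12 groups, the order of D14 levels went by tissue and nutrient state. Its 3 highest groups were the sufficient leaves, at 12.88 ± 0.23 log2 units in LYP9, 12.86 ± 0.06 in PA64s and 12.82 ± 0.39 in 9311, whose arrays overlapped. A gap without overlap followed. The middle 6 groups, from 11.93 ± 0.04 in deficient LYP9 leaves to 11.52 ± 0.41 in sufficient 9311 roots, mixed deficient leaves with sufficient roots and each overlapped its neighbour. After another gap came the deficient roots, at 10.58 ± 0.17 in PA64s, 10.40 ± 0.21 in LYP9 and 10.23 ± 0.42 in 9311. Leaf exceeded root by log2 1.40 ± 0.18 in LYP9, 1.48 ± 0.18 in 9311 and 0.97 ± 0.18 in PA64s (adjusted p = 4.91e-08, 1.75e-08 and 2.13e-05). Quantile normalization lowered these to 0.91, 1.04 and 0.49, all still called.

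MADS57 was highest in deficient leaves (9.01 ± 0.10 in PA64s, 8.77 ± 0.36 in LYP9 and 8.65 ± 0.25 in 9311) and lowest in sufficient leaves (7.29 ± 0.06, 7.14 ± 0.09 and 6.84 ± 0.015 in the same order), with all root groups between, from 8.61 ± 0.94 to 7.80 ± 0.86. In that order 10 of 11 neighbouring groups overlapped. Averaged over states, leaf minus root was not called in LYP9 (-0.52 ± 0.30, adjusted p = 0.127), 9311 (-0.22 ± 0.30, 0.54) or PA64s (-0.25 ± 0.30, 0.481). Without sufficient root replicate 3 or deficient root replicate 2 the LYP9 value was -0.79 or -0.78 and was called.

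TAC1 ran from 7.57 ± 0.28 in sufficient 9311 leaves, apart from the next group, to 4.96 ± 0.13 and 4.85 ± 0.10 in sufficient and deficient PA64s leaves, which lay apart from the 10 groups above them. The 9 neighbouring pairs between and within these overlapped. LYP9 leaves exceeded LYP9 roots by 0.45 ± 0.15 (adjusted p = 0.00916), a call lost without sufficient root replicate 3 (0.31, adjusted p = 0.0519). Leaf minus root was called for 2 of the 3 genes in every genotype, beside 69.2% of all probe sets in LYP9, 68.3% in 9311 and 68.1% in PA64s. The response difference between tissues in a single genotype was called for 1 of 3 genes in 9311, beside 3.35%, and for 0 of 3 in LYP9 and PA64s, with 1 and 2 at an unadjusted p under 0.05, beside 2.61% and 4.02%.

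Other strigolactone and tillering genes did not pass with fertiliser in any single genotype. Of 36 genes listed, 11 could be tied to a probe set, and 3 of these passed the filter in leaf and 8 in root. Limma called 0 of 3 in each leaf contrast and 0 of 8 in each root contrast, with 1 at an unadjusted p under 0.05 in each leaf contrast and 1 (LYP9), 2 (9311) and 1 (PA64s) in root. The list's median log2 difference in leaf was 0.36 in LYP9, 0.28 in 9311 and 0.28 in PA64s, beside 0.067, 0.058 and 0.070 over all probe sets. In root it was 0.034, -0.32 and 0.19, beside 0.008, 0.046 and -0.009. Averaged over genotypes, 1 of 3 was called higher in leaf, SLR1, and 1 of 8 lower in root, D17, beside the background shares of 37.9% and 17.9% given above.

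Among them, D3, the F-box partner of D14, was at log2 0.36 ± 0.24 in LYP9, 0.28 ± 0.24 in 9311 and 0.28 ± 0.24 in PA64s leaves. SLR1, the DELLA repressor of gibberellin signalling, was at 0.66 ± 0.28, 0.72 ± 0.28 and 0.61 ± 0.28 in the same leaves (lowest adjusted p = 0.106), and 0.66 ± 0.16 on average (adjusted p = 0.00481). D17, a carotenoid cleavage enzyme of strigolactone synthesis, was at -0.42 ± 0.12 in LYP9 roots, -0.39 ± 0.12 in 9311 roots and -0.10 ± 0.12 in PA64s roots, with adjusted p = 0.059, 0.0581 and 0.76, and at -0.30 ± 0.07 on average (adjusted p = 0.00484). MADS27, a MADS-box relative of MADS57, was at -0.023 ± 0.22, -0.27 ± 0.22 and 0.048 ± 0.22 in the same roots.

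Between the parents D3 was called lower in 9311 roots (-0.35 ± 0.09, adjusted p = 0.0155), 1 of the 8 list genes tested there, beside 13.3% of all probe sets. Leaf against root, D3 and SLR1 had passed the filter in both tissues. D3 was higher in leaf, by 0.96 ± 0.14 in LYP9, and SLR1 lower (-0.63 ± 0.16), both called in every genotype, beside 68.1% to 69.2% of all probe sets. D17, MADS27 and the auxin efflux carrier PIN2 passed through their root signal alone, so their levels are given without a difference. MADS27 read 16.6 to 39.1 intensity units over the leaf arrays, all below the 55.6 at which the fit of all 36 arrays was filtered, and 257.3 to 507.4 over the root arrays. PIN2 read 19.9 to 41.8 on leaf arrays, also below that level, against 192.3 to 484.0 on root arrays. D17 read 41.1 to 70.2 on leaf arrays, against 57.4 to 98.0 on root arrays, and these overlapped. The leaf response minus the root response, averaged over genotypes, was called for 2 of 5 list genes beside 18.8% of all probe sets. SLR1 was higher (0.64 ± 0.19, adjusted p = 0.0171). The other call was PIN2, whose difference is not given because its leaf signal lay below the filter level, so that call is not read as a response.

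The genes whose pattern was most like each of the 3 were found over the 12 group means, each set relative to its tissue's mean. Among 85 probe sets of genes with a symbol other than a locus number, OsSPO11B (LOC4344697; r = 0.97), FEN1B (0.89) and CEBIP (0.86) were most like D14 and PP2C53 (-0.91) least. CPK13 (0.80), cob (0.79) and TGA2.2 (0.78) were most like MADS57 and KIN7J (-0.91) least. RLK10 (0.84), GLYI-11 (0.71) and ACS1 (0.63) were most like TAC1 and BIP1 (-0.70) least.

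In a pool widened, after these values were seen, to 2393 probe sets of genes with a name among the reference table's synonyms, other genes took most of the ends. D14 was most like FDRMADS8 (LOC4349237, also listed as MADS56; r = 0.98) and CSase (LOC4352839; 0.98), and least like the urea transporter DUR3 (LOC4349520; -0.98) and the allantoinase ALN (LOC4337428; -0.96). MADS57 was most like AAH (LOC4341777; 0.96), the allantoate amidohydrolase that follows allantoinase in purine breakdown, FAS2 (0.94) and ILL7 (0.93). It was least like GluTR (LOC4349044; -0.95), the entry enzyme of chlorophyll synthesis, and panC (-0.95). TAC1 was most like ALDH5F1 (LOC9267109; 0.92), CIPK1 (0.90) and Smt1-1 (0.89), and least like the sugar transporter MST3 (-0.86). All of these correlations are descriptions over 12 means from shared arrays and shared nutrient states. They are the ends of each pool, and the spread of r over the pools is not given. No link particular to these genes is read from them.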

How the data were processed

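The authors deposited one table of linear array intensity values, 57381 probe sets by 36 arrays, with a floor of 1. Of their scaling, the submitters' processing notes give the names RMA and affy alone, with no role, version or order, so whether arrays were normalized is unknown. Values were transformed to log2 with no further scaling, 187 control probe sets were left out and the upper 60% by mean were kept in each fit. Probe sets were named through GEO's platform annotation, with names updated by gene ID in the RefSeq gene table. Leaf and root were fitted apart, and leaf against root in 1 fit of all 36 arrays, with limma 3.58.1 in R 4.3.3 (lmFit, eBayes, 2-sided, 12 and 24 residual degrees of freedom). The procedure was tested on simulated data. Array number, 3 per group, limits the precision.

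The 3 genes and the list of 36 others were chosen with earlier results of these data known. Of the list, HSFA2D was left out because its gene entry also names another gene. Of several probe sets of a list gene, the one with the highest mean was used. Every probe set of the 3 genes is printed; list genes are counted, and named where called or as examples; genes most alike are the 3 highest and up to 2 lowest correlations. Averages over genotypes, LYP9 against each parent, the parental difference between tissues, the linear mid-parent and the wider pool were added after the data were seen. Replicate numbers are not stated to pair samples, so no block was used. Alternatives were quantile normalization, median centring, no filter, trend and robust options, 16 added to intensities, all arrays in 1 fit, a replicate block and leaving out each array.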

Additional observations from a re-analysis of the deposited data

Results flagged for a closer look

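MADS57 responded to fertiliser differently in leaf and root. The leaf response minus the root response was log2 -1.90 ± 0.35 averaged over the 3 genotypes (limma, adjusted p = 0.000286) and -2.14 ± 0.61 in 9311 alone (adjusted p = 0.0467), as tested by an interaction term. The single-genotype value was not called in LYP9 (adjusted p = 0.097) or PA64s (adjusted p = 0.125), and the 9311 call was lost under 12 of 18 alternatives. Root MADS57 varied within groups by up to 0.94 log2 units (SD), against 0.36 in leaf, and the part of that spread in the result was not tested beyond leaving out arrays.

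TAC1 was higher in 9311 than in PA64s in leaf, while in root the difference had the opposite sign and was not called (log2 -0.36, limma, adjusted p = 0.18). The difference 9311 minus PA64s was larger in leaf than in root by log2 2.78 ± 0.21 (limma interaction, adjusted p = 7.06e-11). This test was added after the levels had been seen. Its size rests on PA64s leaves at 26.7 to 33.7 intensity units, below the filter level of 53.9. It also rests on 9311 roots at 55.2 to 72.5, near the root cutoff of 52.1.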

How the results depend on the processing

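Of 78 differences of the 3 genes set against alternatives, 28 were called, 18 of these kept their call under all alternatives and 0 of the called changed sign. Differences outside these 78, none of them called, are not in this count. The replicate block ended no call; it gained TAC1 in 9311 leaf (0.47, adjusted p = 0.0418), and 13 of 18 leaf and 10 of 18 root arrays correlated best with arrays of their own number. Deviations of same-numbered arrays from their group means correlated at 0.22 on average in leaf (-0.29 to 0.62, with 33 of 45 pairs over 0.1), against -0.11 between other numbers. In root they correlated at 0.077 (-0.40 to 0.53, 20 of 45), against -0.039. This is a hint of pairing in leaf from the data, not the design, and since not every pair passed 0.1 the numbers were not taken to pair arrays. With all 36 arrays in 1 fit, MADS57 between the parents in leaf (-0.41, adjusted p = 0.441) and TAC1 against the mid-parent (0.61 and 0.60) and averaged over genotypes in leaf (0.29) lost their calls, and TAC1 in PA64s root (0.75) and averaged in root (0.40) gained one. TAC1 against the leaf mid-parent (sufficient, deficient) also lost it after quantile normalization (0.55, 0.58), median centring (0.59, 0.58), no filter (0.61, 0.60) and 16 added (0.44, 0.43), and was 0.085 and 0.195 with a linear mid-parent, where D14 in deficient leaf was 0.16. Averaged TAC1 in leaf lost it after quantile normalization and median centring (both 0.22). MADS57 in 9311, leaf minus root response, lost it with no filter (-2.14) and 16 added (-1.97). Uncalled values that changed sign were TAC1 in the leaf response of LYP9 against its parents after quantile normalization (-0.027) and D14 in PA64s, leaf minus root response, after quantile normalization (-0.19) and median centring (-0.057). Other probe sets were not tried, since each gene has 1. The cause of these changes was not tested.

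Leaving out 1 array at a time gave these ranges of the log2 difference. Nutrient responses of D14 were 0.59 to 1.14 in 9311 leaf, 0.84 to 1.07 in LYP9 leaf, 1.05 to 1.52 in 9311 root and 0.94 to 1.44 in LYP9 root. TAC1 was 0.30 to 0.56 in 9311 leaf and 0.29 to 0.49 averaged in root. MADS57 in root was -0.15 to 0.68 in 9311, -0.24 to 0.80 in LYP9 and -0.56 to 0.35 in PA64s. MADS57 between the parents in leaf was -0.46 to -0.34. Against the mid-parent in sufficient leaf, D14 was -0.072 to 0.16 and TAC1 0.50 to 0.72, and in deficient leaf MADS57 was -0.26 to 0.054 and TAC1 0.55 to 0.65. In sufficient root D14 was -0.36 to 0.13 and TAC1 -0.068 to 0.53, and in deficient root D14 was -0.13 to 0.11, MADS57 -0.05 to 0.74 and TAC1 -0.14 to 0.039. The 9311 minus PA64s response was -0.23 to 0.012 for MADS57 in leaf, and in root -0.25 to 0.22 for D14 and -0.10 to 0.89 for MADS57. The LYP9 response minus that of its parents was -0.10 to 0.12 for TAC1 in leaf, and in root -0.35 to 0.14 for D14, -0.38 to 0.66 for MADS57 and -0.034 to 0.56 for TAC1. Leaf minus root in LYP9 was -0.79 to -0.35 for MADS57 and 0.31 to 0.61 for TAC1. The leaf minus root response was -2.48 to -1.66 for MADS57 in 9311, and in LYP9 -0.49 to 0.006 for D14, -2.43 to -1.39 for MADS57 and -0.57 to 0.028 for TAC1, and in PA64s -0.066 to 0.12 for D14.

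The count of all probe sets called, which sets the background shares, moved by over 1.5 times in 58 of 574 pairs of a contrast and an alternative. It ran from 1364 to 4532 in LYP9 leaf (3037 as reported), 1837 to 6070 in 9311 leaf (4093), 1163 to 4208 in PA64s leaf (2652, highest with the replicate block), 318 to 1515 in LYP9 root (1188), 302 to 3735 in 9311 root (2021) and 553 to 1323 in PA64s root (1143). Leaf minus root responses gave 524 to 1186 in LYP9 (895), 662 to 1637 in 9311 (1150) and 725 to 1840 in PA64s (1380), and the parents in root 3052 to 7017 (4576). Response differences between the parents gave 0 to 16 (leaf, 6) and 2 to 16 (root, 3), and those of LYP9 against its parents 0 to 1 in either tissue (0). Signal over background was not analysed here, which limits values below the filter level, such as TAC1 in PA64s leaf and MADS27 and PIN2 in leaf.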

Other observations

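The array labelled replicate 1 had the lowest D14 value in 9 of 12 groups, among them all 4 groups of 9311. In 9311 it read 5289 in sufficient leaf, 2411 in deficient leaf, 2137 in sufficient root and 859.7 intensity units in deficient root. The exceptions were deficient LYP9 leaf (3949, the middle array), sufficient PA64s root (3982, the highest) and deficient PA64s root (1541, the middle array).

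The lowest MADS57 values in root came from 1 array in each of 4 groups, at 187 in sufficient LYP9 (replicate 3), 162 in deficient LYP9 (replicate 2), 114 in deficient 9311 (replicate 1) and 170 in deficient PA64s (replicate 3). The highest root array, at 633, belonged to sufficient LYP9, the group that also held the 187.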
